A study of Mus musculus with 2 samples.

Results

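The laminins and integrins of the mouse forebrain at embryonic day 15.5 were taken as every gene whose symbol names a laminin alpha, beta or gamma chain or an integrin alpha or beta subunit. This gave 37 genes of 43346 measured, of which 11 were laminins (5 alpha, 3 beta and 3 gamma chains) and 26 were integrins (18 alpha and 8 beta subunits). The study sequenced total RNA longer than 200 nucleotides from healthy B6NCrl embryos of mixed sex, with 10 ng of RNA and added spike-in transcripts in each library. There was 1 group with 2 biological replicates, replicate 1 from the pooled forebrains of 78 embryos and replicate 2 from those of 62. No genotype, treatment or second age was among the samples, so the data give levels, relations between members within the tissue and the agreement of the pools.

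Laminins are large secreted trimers of 1 alpha, 1 beta and 1 gamma chain that polymerise into the sheet on which basement membranes are built. Their alpha chain carries the globular end that integrins and dystroglycan bind. Integrins are cell-surface receptors of 1 alpha and 1 beta subunit, linked inside the cell to actin through talin and kindlin. In the embryonic forebrain both families act at the pial surface, where the endfeet of radial glia attach to a basement membrane, and around the blood vessels. Mice that lack the laminin gamma-1 chain site for nidogen, or integrin beta-1 in neural cells, are known for breaks in the pial basement membrane and for misplaced cortical neurons.

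The genes of 2 laminin receptor subunits, Itga6 and Itga3, each encode alternative cytoplasmic tails, called A and B, chosen by inclusion or skipping of 1 exon that holds a stop codon. The coding sequences of these tails are shown because the share of each tail among the receptor messages is given further on for each pool. Each runs from the first codon of the tail exon to the stop codon, on the coding strand, from the GENCODE M21 transcripts on mm10. Capitals mark codons 2 to 6, the stretch next to the membrane, which is similar but not identical among the 4 tails.
alpha-6A: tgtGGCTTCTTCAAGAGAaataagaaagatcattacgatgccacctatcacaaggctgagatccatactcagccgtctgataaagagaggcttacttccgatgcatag
alpha-6B: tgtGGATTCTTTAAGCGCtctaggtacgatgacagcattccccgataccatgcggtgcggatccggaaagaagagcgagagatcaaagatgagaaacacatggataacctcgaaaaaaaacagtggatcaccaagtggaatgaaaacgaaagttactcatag
alpha-3A: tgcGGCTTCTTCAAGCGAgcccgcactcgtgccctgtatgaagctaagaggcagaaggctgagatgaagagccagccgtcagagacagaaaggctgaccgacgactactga
alpha-3B: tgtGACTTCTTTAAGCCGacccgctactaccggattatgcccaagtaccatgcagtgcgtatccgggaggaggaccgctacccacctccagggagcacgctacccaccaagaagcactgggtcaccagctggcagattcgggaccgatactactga

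The alpha-6A tail lies at chr2:71853534-71853641 and the alpha-6B tail at chr2:71855854-71856015, both on the plus strand. The alpha-3A tail lies at chr11:95046480-95046590 and the alpha-3B tail at chr11:95045608-95045763, both on the minus strand. The A tails have 35 codons in Itga6 and 36 in Itga3 before the stop, and the B tails have 53 and 51. Aligned end to end without the stop codon, gaps counted as differences, the A tails of the 2 genes shared 60.2% of bases, with 14 of the 15 capital bases identical. The B tails of the 2 genes shared 57.9%, with 11 of 15. The capital bases of alpha-3B matched those of alpha-6A at 10 of 15 and those of alpha-3A at 11. Within a gene, the A and B tails shared 45.9% of bases in Itga6 and 50.3% in Itga3. These 2 shares are lowered by gaps, because the A and B tails differ in length. In identical bases, the A tails of the 2 genes shared 65 and the B tails 92. The A and B tails shared 73 within Itga6 and 78 within Itga3. The shares therefore do not rank the tails by likeness.

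Levels are given as TPM, a gene's share of the transcripts in a library after correction for length, as replicate 1 and replicate 2 or as mean ± SD (n = 2). With 1 group and 2 libraries, a two-sided exact sign-flip test cannot give a p below 0.5, so no test was made, and differences are set against the spread between the pools. Fewer cells of a type and less RNA per cell cannot be told apart in such bulk samples. Expected counts, the reads assigned to features, summed to 38720511 in replicate 1 and 35103430 in replicate 2, of which the 37 members took 21591 and 19586. Of the 37 members, 22 (59.5%) reached 1 TPM in both libraries, near the 60.6% of all protein-coding genes that did. Of the 11 laminins 9 (81.8%) did so, and of the 26 integrins 13. Fewer were abundant: 7 (18.9%) reached 10 TPM in both libraries, against 40.9% of all protein-coding genes. These were 4 of 11 laminins (36.4%, near that background) and 3 of 26 integrins (11.5%). The median member stood at 1.96 TPM, against 4.75 TPM for all protein-coding genes.

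**Figure D1:**
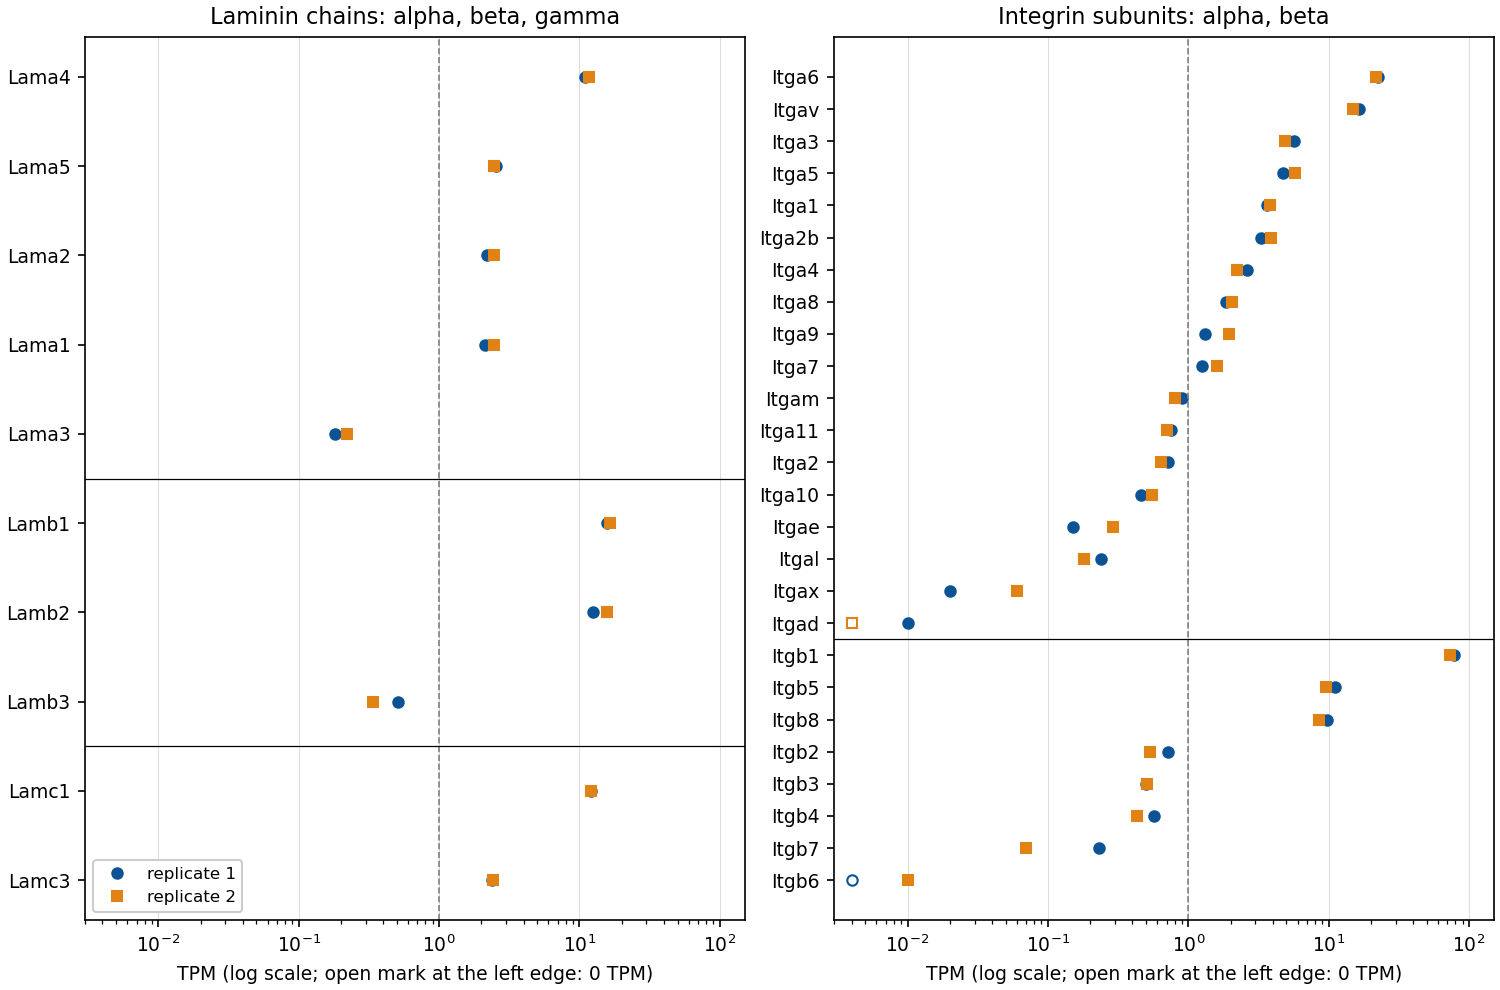
TPM of the members in each library, on a log scale, with laminin chains on the left and integrin subunits on the right, grouped by class and ordered by mean. Circles are replicate 1, squares replicate 2, open marks 0 TPM and the dashed line 1 TPM; Itgb1 is the highest, at 77.80 and 73.24 TPM.

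Among laminin alpha chains, Lama4, the alpha chain of vessel and mesenchymal basement membranes, was highest. It had 10.90 and 11.69 TPM in the 2 libraries, from 1148 and 1101 expected counts, and made up 60.7% of the alpha-chain sum. Lama5, the alpha chain of many epithelial and mature vascular basement membranes, had 2.56 and 2.45 TPM. Lama2, the alpha chain of muscle and of vessel walls in brain, had 2.18 and 2.46 TPM. Lama1, the alpha chain of early embryonic and pial basement membranes, had 2.13 and 2.47 TPM, so the whole-gene values of Lama5, Lama2 and Lama1 overlapped. Lama1 had 469 and 500 expected counts, against 241 and 242 for Lama2 and 249 and 182 for Lama5. Lama3, the alpha chain of skin and other surface epithelia, had 0.18 and 0.22 TPM. Lama4 stood 4.51-fold above Lama5 (log2 2.17 ± 0.12), a gap many times the spread between the pools.

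The beta and gamma chains were dominated by those of the common trimers. Lamb1, the beta chain of most embryonic laminins, had 15.71 and 16.55 TPM. Lamb2, the beta chain known from synapses, kidney glomeruli and vessels, had 12.53 and 15.58 TPM. The 2 chains did not overlap, but the log2 ratio of Lamb1 over Lamb2 was 0.21 ± 0.17, little more than its own spread. Lamb3, a beta chain of surface epithelia, had 0.51 and 0.34 TPM. Lamc1, the gamma chain of nearly all laminins, had 12.04 and 12.14 TPM and 77.8% of the gamma-chain sum. Lamc3, a gamma chain whose human gene is linked to malformed occipital cortex, had 2.39 and 2.42 TPM. Lamc1 and Lamc3 differed little between the pools: on whole genes their log2 ratio was 2.33 in each library. On complete transcripts the ratio of Lamc1 over Lamc3 was lower, at 1.87 ± 0.02.

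Summed over classes, the beta chains exceeded both partners. They reached 30.6 ± 2.63 TPM, against 18.6 ± 0.948 TPM for alpha chains and 15.5 ± 0.0990 TPM for gamma chains. The beta chains were 1.64-fold above alpha (log2 0.72 ± 0.05) and 1.97-fold above gamma (0.98 ± 0.11). These are levels of messages and say nothing of secreted protein.

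Among integrin beta subunits, Itgb1, the common partner of the collagen, laminin and fibronectin receptors, had 77.80 and 73.24 TPM from 6744 and 5814 expected counts. It was the highest member, with 78.1% of the beta-subunit sum, and 2341 protein-coding genes stood above it. Itgb5, a partner of alpha-v that binds vitronectin, had 11.13 and 9.50 TPM. Itgb8, the alpha-v partner that activates latent TGF-beta and that neural cells need for intact brain vessels in mice, had 9.70 and 8.60 TPM. The ranges of Itgb8 and Itgb5 overlapped, but within each library Itgb8 was the lower, with a log2 ratio over Itgb5 of -0.17 ± 0.04. The other 5 beta subunits were below 1 TPM. Itgb3, of platelets and angiogenic vessels, had 0.50 and 0.51 TPM, and Itgb4, of hemidesmosomes, 0.57 and 0.43 TPM. Itgb6, an epithelial subunit, had 0 and 1 expected counts, and a count of 0 in replicate 1 allows up to 0.0272 TPM. This limit, at 3 reads, and the exact intervals of the ratios between pools below cover counting error only. The authors' intervals of transcript TPM are each for 1 library and cover no spread between pools.

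The laminin-binding alpha subunits were led by Itga6, at 22.29 and 21.81 TPM. Itga3, also of radial glia and known for its part in neuronal migration, had 5.67 and 4.87 TPM, and Itga7, best known from muscle, 1.26 and 1.60 TPM. Itga6 was 4.20-fold above Itga3 (log2 2.07 ± 0.13). Itgav, the alpha subunit of the receptors for vitronectin and latent TGF-beta, came second among alpha subunits on whole genes, with 16.44 and 15.00 TPM. Among receptors for fibronectin and related ligands, Itga5 had 4.76 and 5.76 TPM, Itga4, which also binds Vcam1, 2.63 and 2.21 TPM, Itga8, a receptor for nephronectin, 1.86 and 2.05 TPM, and Itga9, a receptor for tenascin C, 1.31 and 1.94 TPM. Itga5 and Itga3 overlapped, and so did Itga9 with Itga8 and Itga7.

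Of the collagen-binding alpha subunits, only Itga1 passed 1 TPM, with 3.64 and 3.85 TPM. Itga2 had 0.72 and 0.64 TPM, Itga11 0.75 and 0.71 TPM, and Itga10 0.46 and 0.55 TPM. Together these 4 made 5.66 ± 0.127 TPM, against 28.8 ± 0.665 TPM for the 3 laminin-binding subunits. Itga1 and Itga2 are neighbours on chromosome 13, 21 kb apart on the same strand. The gene Pelo, at 4.69 TPM, lies within Itga1 on the same strand, and how their reads were divided is not stated in the labels or file headers.

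The blood cell integrins given here were below 1 TPM, except Itga2b on whole genes. Itga2b, the alpha subunit of the platelet fibrinogen receptor, had 3.32 and 3.90 TPM, from 90 and 91 expected counts. On complete transcripts it had 0.595 TPM. Its partner Itgb3 was at 0.505 TPM, and the megakaryocyte and platelet list had 2 of 6 markers at 1 TPM, with a summed level of 32.0 and 35.1 TPM. Of that list Pf4, a chemokine of platelets also made by some macrophages, had 22.8 TPM, Gp1bb, a subunit of the platelet receptor for von Willebrand factor, 9.46 TPM, Gp9 0.470 TPM and Gp6 0.0200 TPM. Itgam, the alpha subunit of microglia and other myeloid cells, had 0.90 and 0.80 TPM, and its partner Itgb2 0.72 and 0.53 TPM. The log2 ratio of Itgb2 over Itgam was -0.46 ± 0.19 on whole genes and 0.02 ± 0.21 on complete transcripts. Itgal, of lymphocytes, had 0.24 and 0.18 TPM, and Itgax, of dendritic cells, 0.02 and 0.06 TPM. Itgad had 1 and 0 expected counts, with a limit of 0.0348 TPM in replicate 2. The mucosal subunits Itgae and Itgb7 had 0.15 and 0.29 TPM and 0.23 and 0.07 TPM. All 7 markers of microglia and macrophages passed 1 TPM, with sums of 86.6 and 85.4 TPM, whereas 0 of 6 lymphocyte markers did, and Cd3e, Cd3g and Cd8a had 0 reads in both libraries. The part of any of these cells in the integrin levels was not tested.

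A whole-gene TPM adds all transcripts of the gene, and a few reads on a short transcript weigh heavily in it. The levels were therefore recomputed, after the data had been seen, over transcripts with a complete coding sequence alone. Itgav lost the most TPM: Itgav-205, an incomplete transcript of 463 bases at chr2:83802921-83806916 whose bases all lie in exons of complete transcripts, was assigned 11.37 and 10.67 TPM. That was 69.2 and 71.2% of the gene's TPM, from 97 of 795 and 84 of 650 expected counts. The complete transcripts of Itgav reached 3.97 ± 0.368 TPM. Those of Itga5 reached 5.26 TPM and those of Itga3 4.56 TPM, so Itgav did not keep second place among alpha subunits. Itga6-203, a non-coding transcript of 2721 bases, held 7.53 and 7.41 TPM, and complete Itga6 transcripts 10.8 ± 0.0919 TPM. In Itga2b a transcript of 623 bases led in both libraries, and complete transcripts stood at 0.595 TPM. In Lama5 and Lama2 a transcript under 1000 bases held 32.0% and 42.0% of the TPM on average, level with the 30.9% and 41.9% of the leading complete one, and complete transcripts stood at 0.780 and 0.975 TPM. Lamc1 stood at 7.32 TPM, since Lamc1-204, of 1447 bases, held 34.1% and 36.0% of its TPM from 129 and 127 expected counts. Itgb1, Itga1, Itga5, Itga7 and Lama1 hardly moved, with Itgb1-201 holding 99.1% of Itgb1. On complete transcripts 17 members kept 1 TPM in both libraries. The share of all protein-coding genes that did so was not computed, so the fall from 22 cannot be called particular to the members. Itga2b, Itga9, Lama2 and Lama5 were among those that did not.

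**Figure D2:**
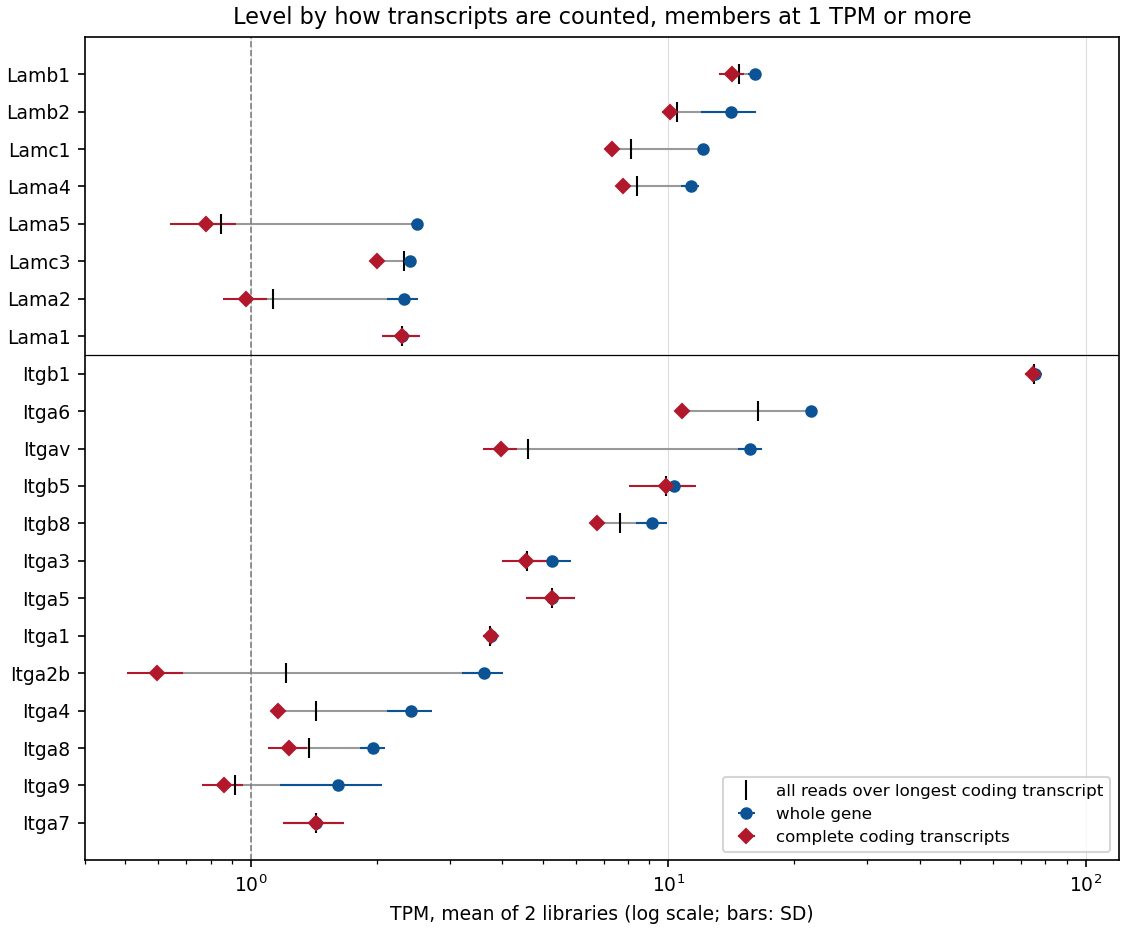
Mean TPM of members at 1 TPM or more, on a log scale, for the whole gene (circles), for complete coding transcripts (diamonds) and for all reads of the gene over its longest complete coding transcript (ticks), with SD bars over the 2 libraries for the circles and diamonds. The widest gaps are those of Itga2b, Itgav and Lama5, and Itgb1 does not move visibly.

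Several relations between members depended on this choice. Itgb1 over Itgav was 4.81-fold on whole genes and 18.9-fold on complete transcripts. Lama4 over Lama5 was 4.51-fold and 10.0-fold. Lama2 over Lama1 was 1.01-fold on whole genes (log2 0.01 ± 0.03) and 0.423-fold on complete transcripts (log2 -1.24 ± 0.03). The 2 chains were thus level on whole genes, and Lama2 was the lower on complete transcripts. There Lama1 stood at 2.30 TPM, against 0.975 TPM for Lama2 and 0.780 TPM for Lama5. With all reads counted over the longest complete transcript, the 3 chains stood at 2.30, 1.13 and 0.846 TPM. Itga6 over Itga3 was 2.38-fold on complete transcripts, and Itga5 over Itga4 was 2.17-fold on whole genes and 4.51-fold on complete ones. Lamb1 over Lamb2 was 1.40-fold on complete transcripts, with a log2 ratio of 0.49 ± 0.03.

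Of 14 laminin trimers known from vertebrate tissues, 11 had all chains at 1 TPM or more in both libraries on whole genes. A chain shared by several trimers was counted in full for each, and in bulk tissue the chains may come from different cells. Laminin-411 and laminin-421, the trimers with Lama4 and Lamc1 and with Lamb1 or Lamb2, had the most abundant scarcest chain: Lama4 set it at 11.3 ± 0.559 TPM. The other 9, with alpha chains Lama1, Lama2 or Lama5 or gamma chain Lamc3, had 2.30 to 2.50 TPM. On complete transcripts 5 trimers did so, namely laminin-111, laminin-121, laminin-411, laminin-421 and laminin-423, and 8 with all reads counted over the longest transcript. Laminin-411 and laminin-421 were still highest, at 7.32 ± 0.0424 TPM, with Lamc1 then the scarcest chain. The trimers with Lama3 stood at 0.200 TPM. Markers of surface epithelium were at 1 TPM in 3 of 7 cases, with sums of 12.7 and 7.48 TPM. Krt18 at 4.75 TPM and Krt8 at 2.65 TPM were the highest of them, and Krt5 at 0.115 TPM the lowest. Krt14 at 0.155 TPM and Trp63 at 0.120 TPM were nearly as low. Which cells gave the Krt18 and Krt8 messages was not tested.

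Of 24 integrin heterodimers known in mammals, 11 had both subunits at 1 TPM or more on whole genes and 10 on complete transcripts. Of the 11, 9 contained Itgb1. Itga6 with Itgb1, a laminin receptor, had the most abundant scarcer subunit, at 22.0 ± 0.339 TPM on whole genes and 10.8 TPM on complete transcripts. Itgav with Itgb1, Itgb5 and Itgb8 followed at 15.7, 10.3 and 9.15 TPM, and all 3 stood at 3.97 TPM on complete transcripts, where Itgav was the scarcer subunit of each. In Itga6 with Itgb4, the hemidesmosome receptor, the scarcer subunit was Itgb4, at 0.50 TPM. In Itga2b with Itgb3 it was Itgb3, at 0.505 TPM. These values are levels of a single message and not of a pair. A shared subunit was counted in full in each of its pairs, and the subunits may come from different cells.

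**Figure D3:**
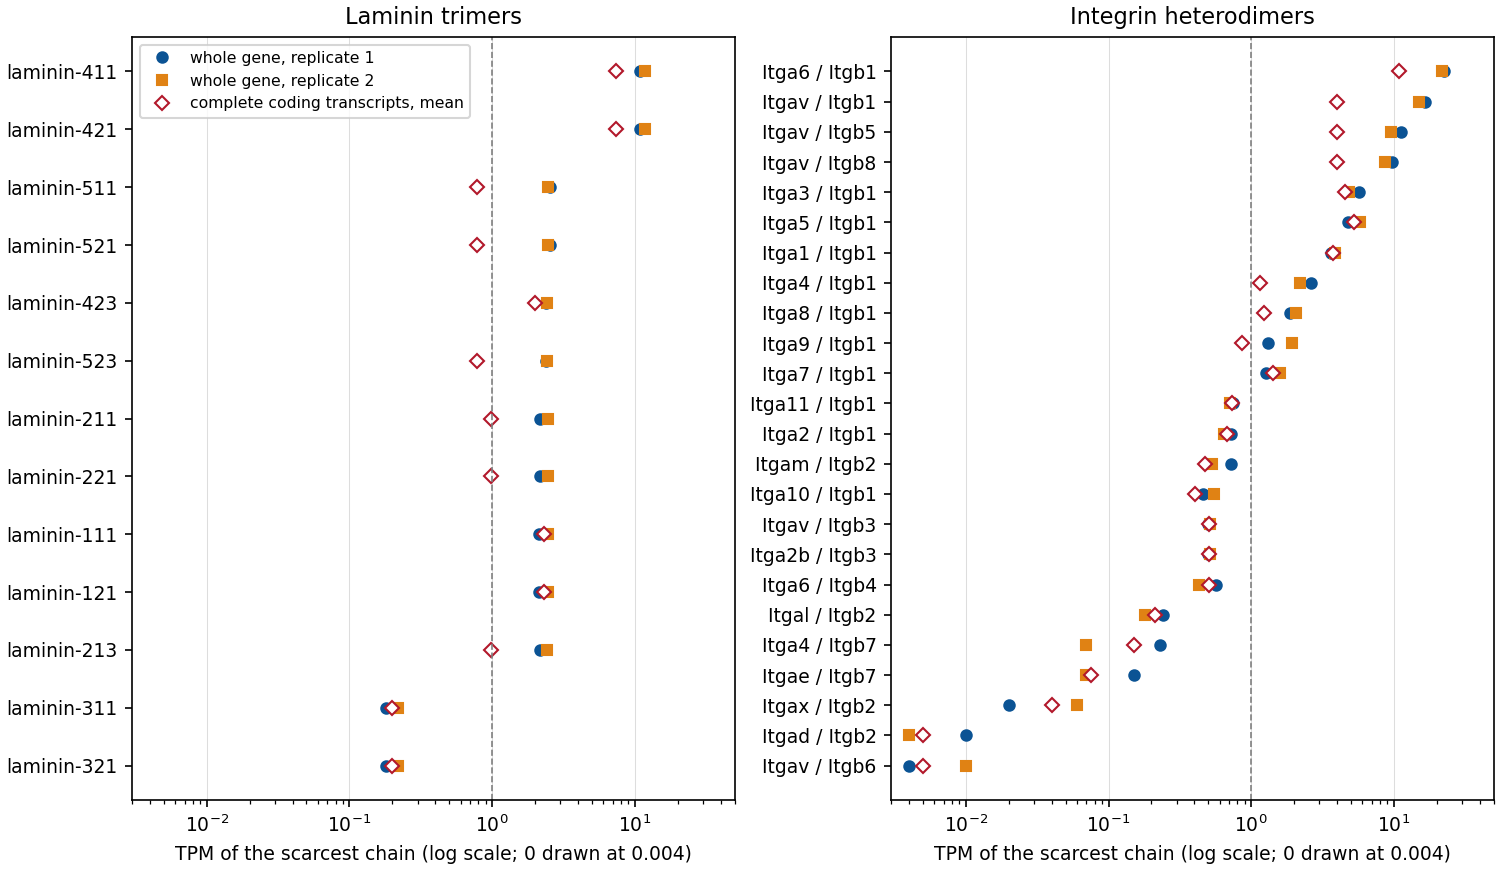
TPM of the scarcest chain of laminin trimers (left) and 24 integrin heterodimers (right), on a log scale, with whole-gene values of each library as filled marks and the mean over complete coding transcripts as open diamonds. Laminin-411 and laminin-421 lead the trimers, and Itga6 with Itgb1 leads the heterodimers under both ways of counting.

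The 12 alpha subunits that pair with beta-1 summed to 61.4 ± 0.566 TPM, against 75.5 ± 3.22 TPM for Itgb1 itself. Their log2 ratio was -0.30 ± 0.05, and -1.10 ± 0.08 on complete transcripts, so Itgb1 exceeded its partners' sum in each case. The beta partners of Itgav other than Itgb1 summed to 20.0 ± 1.92 TPM, against 15.7 ± 1.02 TPM for Itgav. The log2 ratio was 0.34 ± 0.05 on whole genes and 2.11 ± 0.01 on complete transcripts.

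The alternative tails of Itga6 and Itga3 differed between the libraries. Itga6-201, which encodes alpha-6A, had 2.46 TPM in replicate 1 and 6.01 TPM in replicate 2. The authors' deposited intervals were 1.05 to 4.21 and 3.89 to 7.98 TPM. Itga6-202, which encodes alpha-6B, had 8.32 and 4.90 TPM, with intervals of 6.16 to 9.64 and 2.40 to 6.68. The A tail therefore took 22.8% of the pair in replicate 1 and 55.1% in replicate 2, although the intervals of each transcript overlapped between libraries and the whole gene differed by a log2 ratio of only -0.03. Counting every transcript that includes or skips the 130-base A exon, with Itga6-203 as skipping, gave 15.6 and 34.1% inclusion. In Itga3 the A tail took 64.0 and 47.0% of the pair, and 65.3 and 51.6% with Itga3-202, which also includes the A exon, counted. Itga3-201, with alpha-3A, had 3.06 and 1.79 TPM, and Itga3-203, with alpha-3B, 1.72 and 2.02 TPM, again with overlapping intervals. Both tails of both receptors were thus assigned reads in each pool. Within each pair of transcripts the leading tail was not the same in the 2 libraries. With all transcripts counted, skipping led for Itga6 and inclusion for Itga3 in both. For Itga6 in replicate 2, skipping led only through Itga6-203, annotated as non-coding, at 7.41 TPM. For Itga3 in replicate 2, inclusion led narrowly, at 51.6%. No steady order of the encoded tails is therefore shown.

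**Figure D4:**
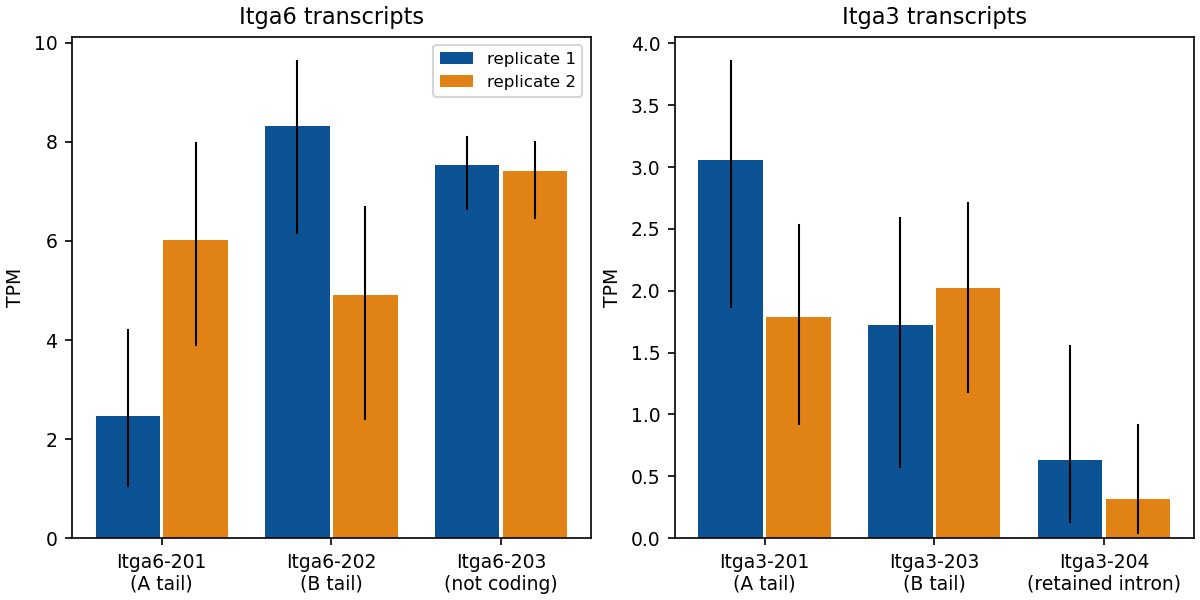
TPM of the leading Itga6 and Itga3 transcripts in replicate 1 and replicate 2 (bars, from 0), with the authors' deposited interval for each as a black line. Itga6-201 and Itga6-202, and likewise Itga3-201 and Itga3-203, exchange order between libraries, and the intervals of each transcript overlap between libraries.

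Few members differed strongly in read count between the pools. After scaling for library size, 34 members had 10 or more summed reads. Of these, 2 (5.88%) differed by more than 1.5-fold, against 11.3% of all genes with 10 or more reads. Itgb7 was higher in replicate 1 (log2 1.55, 14 and 4 expected counts; 6.25% of all genes were higher) and Itgae was lower in replicate 1 (log2 -0.94, 13 and 23 expected counts; 5.09% were lower). Both rest on few reads. Their 95% exact intervals, -0.00 to 3.73 and -2.07 to 0.08, reach 0 or span it. Of 27 members with 100 or more reads, 0 were higher and 0 lower by more than 1.5-fold, against 1.49% and 0.741% of all genes (2.23% in either direction). Their log2 ratios ran between -0.37 for Itga7 and 0.40 for Itgb4. The median absolute log2 ratio of these 27 was 0.14, against 0.08 for all genes with 100 or more reads. Above that limit the genes were not matched to the members in depth, so the 2 medians do not compare genes of equal depth. Itgb5, at 0.35 (interval 0.19 to 0.51), and Itga5, at -0.29 (-0.47 to -0.11), were among the members whose interval lay away from 0. Spike-in scaling lowered every ratio by 0.20, which is more than the lower bound for Itgb5, so its interval then reached 0. The same shift moved ratios already below 0, such as that of Itga5, further from 0. The pools also differed in choroid plexus markers, which summed to 831 and 370 TPM, and the part of that tissue in the members' ratios was not tested.

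**Figure D5:**
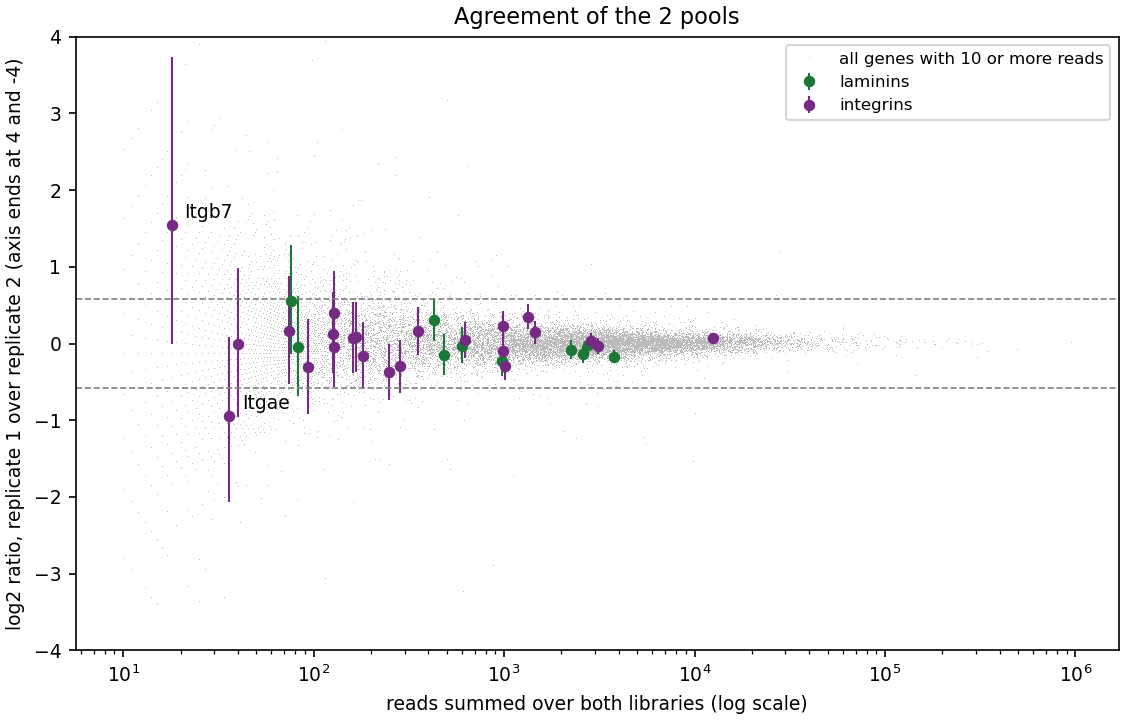
Log2 ratio of replicate 1 over replicate 2 against summed reads (log scale) for all genes with 10 or more reads (grey) and for laminins and integrins, with 95% exact binomial intervals; dashed lines mark 1.5-fold and genes beyond 4 in either direction are not drawn. Members with 100 or more reads all lie within the lines, and Itgb7 and Itgae lie outside with wide intervals.

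By median, each list of partners stood above the members, whose median was 1.96 TPM. The lists were chosen by hand, whereas the members were taken by symbol alone. Of all protein-coding genes, 60.6% passed 1 TPM in both libraries, and their median was 4.75 TPM. Of 13 other basement membrane genes, 11 passed 1 TPM in both libraries, with a median of 19.3 TPM. Sparc, a secreted collagen-binding protein, was highest at 319 ± 21.9 TPM, followed by Agrn, a heparan sulfate proteoglycan that binds laminin, at 87.3 ± 2.66 TPM, and the lowest was Frem2 at 0.675 TPM. The nidogens, which bind the gamma-1 chain, stood at 14.2 TPM (Nid1) and 19.7 TPM (Nid2), beside a whole-gene level of 12.1 TPM for Lamc1. Dystroglycan, the other laminin receptor, was encoded by Dag1 at 44.2 ± 0.00707 TPM, above each integrin alpha subunit. All 13 genes of dystroglycan and its glycosylation passed 1 TPM, between Pomgnt1 at 53.7 TPM, B4gat1 at 46.8 TPM and Ispd at 4.96 TPM.

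Inside the cell, 18 of 20 integrin adaptors and kinases passed 1 TPM, with a median of 17.0 TPM. Ilk, a pseudokinase that binds integrin beta tails, had 177 TPM and Ptk2, the focal adhesion kinase, 57.6 TPM. Of the kindlins, which activate integrins, Fermt2 had 41.0 TPM, Fermt3, of blood cells, 2.75 TPM and Fermt1, of epithelia, 0.010 TPM. Of 14 integrin ligands outside the basement membrane, 10 passed 1 TPM, with a median of 6.29 TPM. Vtn (vitronectin), a ligand of alpha-v, led with 60.6 TPM, Tnc (tenascin C) had 29.8 TPM, and the fibrinogen gene Fgb, at 0.115 TPM, was lowest. Of the 7 genes around latent TGF-beta, 6 passed 1 TPM (median 5.04 TPM), with Tgfb2 at 15.4 TPM, Nrros, which anchors latent TGF-beta on microglia, at 6.69 TPM and Tgfb1 at 0.440 TPM.

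The labelled tissue carried its markers. All 8 radial glia and all 6 young neuron markers passed 1 TPM, with medians of 70.7 and 488 TPM. So did all 7 endothelial (median 11.0 TPM), all 6 pericyte and smooth muscle (8.24 TPM) and all 7 mesenchymal markers (32.9 TPM), and 5 of 6 choroid plexus markers. Cells of vessels and meninges are known to make many laminins, and their part in the laminin levels was not tested.

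Some members lie beside or across other genes. Haspin (6.32 TPM) runs antisense to Itgae, G0s2 (4.33 TPM) antisense to Lamb3, and Gm2415 (5.75 TPM) antisense to Itga9. Whether the counting used strand is not stated in the labels or file headers, so reads of these partners may not have been told apart, and the levels of Itgae, Lamb3 and Itga9 are uncertain. The same limit holds for Itga4, with Cerkl (1.28 TPM) antisense to it, and for Itga6, with Gm17250 (1.75 TPM). Both of these partners had fewer reads than the member. Itgam, Itgax and Itgad follow one another on chromosome 7 with gaps of 11.1 and 3.72 kb.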

How the data were processed

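Each of the 2 libraries had 1 gene table and 1 transcript table, on mm10 with GENCODE M4 gene models, per the file headers and accompanying notes. No aligner, quantifier, strand setting or priming is named in the labels or headers. Expected counts, as deposited, are the authors' estimates of reads per gene or transcript. The deposited TPM values correct them for length, as maximum-likelihood estimates and posterior means, and a deposited percent column divides the TPM of a gene among its transcripts. The authors also deposited intervals of transcript TPM, whose level is not stated.

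Members, lists, pairs and tests were chosen with earlier results of these data known. The members are described, except 1 that is not reported here, with the 2 highest and the lowest gene of each partner list and others needed beside a result, chosen after their values were seen. Symbols were matched by identifier for 42462 of 43346 genes. Types, transcript names and coordinates were taken from GENCODE M21 on mm10, whose models differ from M4. A complete coding transcript is protein-coding with no missing start or end. Protein sequences were not used here, and the tails are shown as coding sequence instead.

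To compare the pools, counts were made whole by rounding and scaled by TMM in edgeR 4.0.16 (R 4.3.3), and 0.5 reads were added. No count model was fitted, since no groups were compared. Entries other than mouse genes held 2.44 and 2.13% of reads and were left out. Alternatives used DESeq2 1.42.0 size factors, spike-in and total-count scaling, posterior means, CPM, pseudocounts, other thresholds, protein-coding transcripts and 1 library at a time. Spike-in scaling lowered all log2 ratios of replicate 1 over replicate 2 by 0.20. The ratio and count steps were tested on simulated data. Tables were handled in Python 3.11.15 with pandas 2.3.3, intervals computed in scipy 1.17.1 and plots drawn in matplotlib 3.10.9. The labels describe the replicates as separate pools.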

Additional observations from a re-analysis of the deposited data

How the results depend on the processing

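Counting complete coding transcripts, or all reads over the longest of them, were alternatives chosen after seeing the data. The log2 ratio of Lama2 over Lama1 turned to -1.24 on protein-coding and on complete transcripts, -1.02 over the longest transcript, -1.0 on CPM and -0.01 without replicate 1 (0.03 without replicate 2). Itgb8 over Itgb5 turned to 1.12 on CPM, which keeps the greater length of Itgb8 in the value, and Itgb2 over Itgam to 0.16 on protein-coding and 0.02 on complete transcripts. In the order posterior means, protein-coding, complete and longest transcript, laminin beta over alpha was 0.83, 1.10, 1.04 and 0.99, the alpha partners over Itgb1 -0.23, -0.69, -1.10 and -0.85, and the beta partners over Itgav 0.41, 0.18, 2.11 and 1.96. Beta over gamma was 0.79, 1.27 and 1.16 in the last 3. The median member was at 2.25, 0.975, 0.975 and 1.13 TPM in that order, with no median of all protein-coding genes set beside these values. Trimers at 1 TPM numbered 5 on protein-coding and on complete transcripts. Members past the fold between pools numbered 5 with no count filter, 6 at a smaller fold and 1 at 2-fold. The shares of all genes at these 3 settings were not computed, so the counts cannot be set against a background. The cause of these shifts was not tested except where named.

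With 1 library at a time, members at 1 TPM stayed 22, trimers 11 and heterodimers 11, while beta over alpha ran between 0.68 and 0.75, beta over gamma between 0.90 and 1.06, alpha partners over Itgb1 between -0.33 and -0.26, and beta partners over Itgav between 0.31 and 0.38. No paired analysis was possible because there was 1 group. Depth limits members under about 100 reads, and read division among transcripts limits the tails of Itga6 and Itga3.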
